A study of Mus musculus with 9 samples.

Results

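The genes described here are 10 genes of the integrated stress response in rat liver: the transcription factor Atf4 and 9 genes known as its targets or partners, namely Ddit3, Ppp1r15a, Asns, Psat1, Phgdh, Trib3, Chac1, Sesn2 and Gdf15. They were found by their gene symbol in a count table of 19686 genes, and all 10 were present. Hepatic RNA was sequenced from 9 male Wistar rats, 3 in each of 3 groups. The control group drank purified water and received saline by gavage. The model group drank 15% fructose, a way to induce metabolic syndrome in rats, and received saline by gavage. The HME group drank the same fructose and received the 50% methanol extract (HME) of the herbal formula Danggui-Shaoyao-San (DSS) at 1.8 g/kg. Treatment lasted 8 weeks, and all rats were fasted for 12 h before the liver was taken. In the sample labels the treated rats are named DSS, and according to the study's methods only HME was carried forward to liver RNA. The labels also name the mouse as organism, but the strain is Wistar rat and the identifiers of the genes are rat identifiers.

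In the integrated stress response, kinases that sense amino acid shortage, unfolded protein, haem shortage or viral RNA phosphorylate the translation factor eIF2. General protein synthesis then slows, while translation of the Atf4 mRNA increases, so the level of Atf4 mRNA is not a measure of ATF4 protein. ATF4 then activates genes for amino acid synthesis and uptake, for the pro-apoptotic factor CHOP (Ddit3), and for a phosphatase subunit (Ppp1r15a) that reverses the phosphorylation of eIF2. In the liver the response is known from protein restriction, endoplasmic reticulum stress and mitochondrial stress.

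Total counts per library ranged from 14345819 to 26837227, and model replicate 1 was the deepest. It also stood apart on the second principal component (25.6% of the variance), at -46.4 where the next rat was at -10.5. Summed CPM (counts relative to the normalised library size) of 8 hepatocyte markers lay between 115797 and 184755 in every library, and all 8 were detected in each. The sums of red blood cell, leukocyte and Kupffer cell, endothelial, stellate, bile duct and intestine markers overlapped between all 3 groups. The sum over 2 pancreas markers ranged from 13.1 to 16.3 CPM among control rats, from 18.5 to 28.0 CPM among model rats and from 16.1 to 26.4 CPM among HME rats, and 1 of the 2 had no reads in the model and HME groups. The sum over 4 markers of proliferating cells was 3.10 to 6.45 CPM among control rats, 5.52 to 12 CPM among model rats and 0.924 to 3.93 CPM among HME rats. All 4 were lower in each HME rat than in each model rat, where 7.86% of all genes tested were. No marker was called by edgeR in any comparison. Of all genes tested, edgeR called 0.0801% between the model and control groups, 0.136% between the HME and model groups and 1.48% between the HME and control groups. The markers with an unadjusted p under 0.05 were 7 of 41 between the model and control groups, 6 of 44 between the HME and model groups and 9 of 43 between the HME and control groups, where 13.2%, 8.02% and 24.3% of all genes tested had such a p. DESeq2 called 1 marker, Cps1, in the first comparison, 0 in the second and 1, Apoa1, in the last, where 2.05%, 1.18% and 6.09% of all genes were called. The part of these cell types in the values below was not tested.

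All 10 genes were tested in each of the 3 comparisons. Phgdh passed the filter on low counts against the control group only through its reads in the model or HME rats. The enzymes that make asparagine and serine had the largest differences between the model and control groups: Asns, Psat1 and Phgdh averaged 8 to 9 times higher in the model group. In these 3 enzymes the HME mean lay between the other means, with 1 HME rat within or just under the model range. Trib3 and Chac1 had their highest averages in the HME group. Atf4 itself, Ddit3, Ppp1r15a and Gdf15 overlapped between all groups. None of the 10 genes passed the thresholds of the main test (a log2 fold change of 0.5 or more in either direction with an edgeR FDR no higher than 0.01), so the differences below are given as values. Since whole liver was sequenced, less RNA per cell cannot be told apart from fewer cells of a type.

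**Figure D1:**
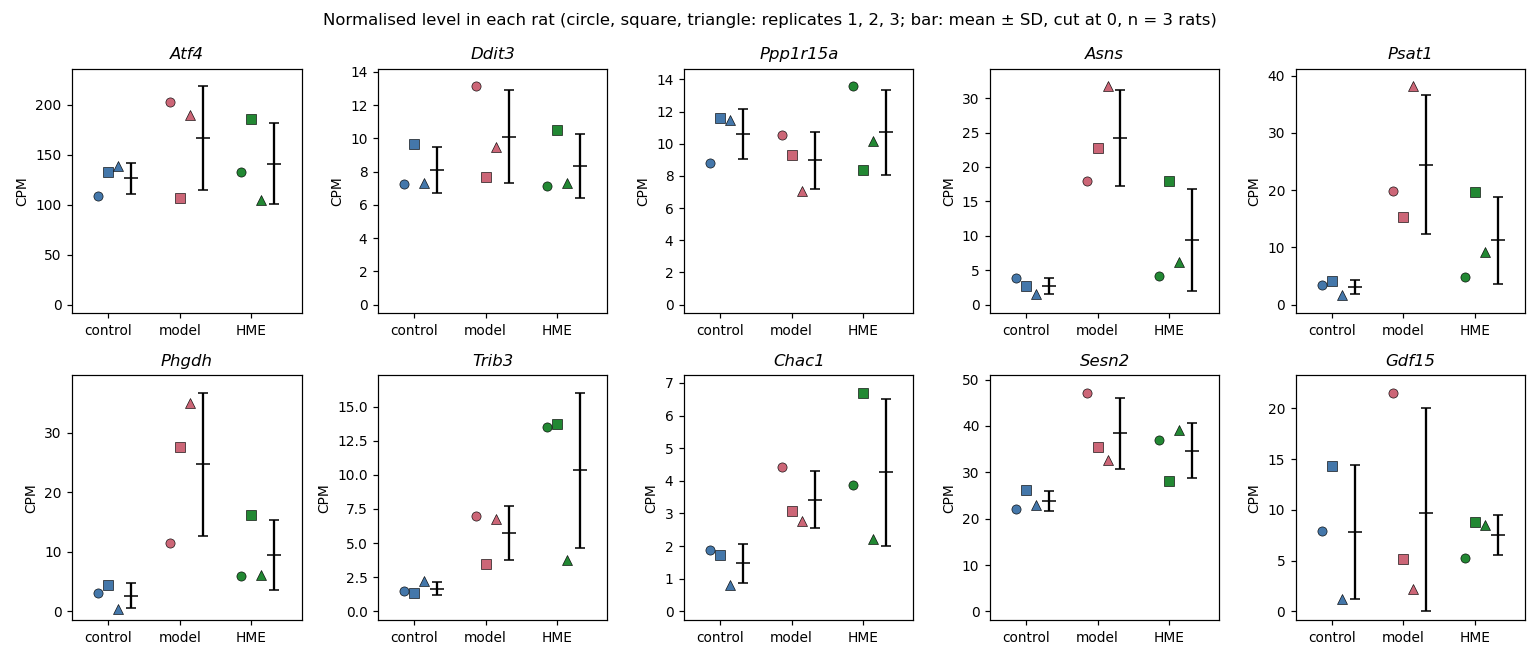
Normalised level (CPM, vertical axis, linear) of the 10 genes in each of the 9 rats, by group, with circles, squares and triangles for replicates 1, 2 and 3 and bars for the mean ± SD of 3 rats (cut at 0). Asns, Psat1 and Phgdh are above 11 CPM in every model rat and below 5 CPM in every control rat, whereas the 3 groups overlap in Atf4, Ddit3, Ppp1r15a and Gdf15.

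The transcription factors of the response come first. Atf4 (ENSRNOG00000017801), the factor that gives this set of genes its name, was the most deeply counted of the 10, with 1664 to 4749 reads per library. Its level was 109, 133 and 138 CPM in control replicates 1 to 3, 203, 107 and 190 CPM in the model rats, and 133, 186 and 105 CPM in the HME rats. Model replicate 2 was as low as the lowest control rat, and the 3 groups overlapped. The group means were 127 ± 15.7, 167 ± 52.2 and 141 ± 40.9 CPM (SD, n = 3). Between the model and control groups the log2 fold change in edgeR was 0.40 with a standard error of 0.245 and FDR = 0.527, and between the HME and model groups it was -0.24 with a standard error of 0.288 and FDR = 0.892.

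Ddit3 (ENSRNOG00000006789) encodes CHOP, a factor that promotes cell death under lasting stress. Its level was 7.25, 9.67 and 7.32 CPM in the control rats, 13.1, 7.65 and 9.50 CPM in the model rats and 7.12, 10.5 and 7.33 CPM in the HME rats. A single rat, model replicate 1, stood above the others, and the groups overlapped. Over the control group, Ddit3 was at a log2 fold change of 0.33 in the model rats (edgeR, standard error 0.246, FDR = 0.608) and of 0.04 in the HME rats (standard error 0.202, FDR = 0.929).

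Ppp1r15a (ENSRNOG00000020938), the stress-induced subunit that directs a phosphatase to eIF2 and so ends the response, was the only one of the 10 genes with a lower fitted mean in the model group than in the control group. It was at 8.81, 11.6 and 11.5 CPM in the control rats, 10.5, 9.32 and 7.03 CPM in the model rats and 13.6, 8.36 and 10.2 CPM in the HME rats. These ranges overlapped in all pairs of groups. The log2 fold change was -0.24 between the model and control groups (standard error 0.213, FDR = 0.677 from edgeR) and 0.26 between the HME and model groups (standard error 0.239, FDR = 0.861).

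The amino acid synthesis enzymes separated the model rats from the control rats. Asns (ENSRNOG00000007546), asparagine synthetase, is a classic ATF4 target that turns aspartate into asparagine. The control rats had 3.85, 2.75 and 1.46 CPM and the model rats 18.0, 22.8 and 31.8 CPM. Every model rat was thus more than 4 times above the highest control rat. The HME rats had 4.13, 17.9 and 6.25 CPM, so that HME replicate 2 sat just under the lowest model rat while the other two were near the control range. Group means were 2.69 ± 1.19, 24.2 ± 7.00 and 9.43 ± 7.42 CPM (SD, n = 3).

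Asns was 8.78-fold higher in the model group than in the control group (log2 fold change 3.13, standard error 0.352, FDR = 0.0151 from edgeR). This FDR was above 0.01 in the main fit and between 0.0271 and 0.086 with any 1 rat left out, whereas DESeq2 on the same genes gave an FDR of 2.18e-16. Between the HME and model groups Asns was 2.55-fold lower (log2 fold change -1.35, standard error 0.501, unadjusted p = 0.0275 and FDR = 0.549 from edgeR). Without HME replicate 2 the log2 fold change was -2.21. Between the HME and control groups it was 3.42-fold higher (log2 fold change 1.77, standard error 0.648, FDR = 0.168 from edgeR and 0.00419 from DESeq2), and without HME replicate 2 this log2 fold change was 0.93.

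Phgdh and Psat1 catalyse the opening steps of serine synthesis from a glycolytic intermediate. Phgdh (ENSRNOG00000019328), phosphoglycerate dehydrogenase, was at 3.16, 4.48 and 0.333 CPM in the control rats, where control replicate 3 had only 5 reads. The model rats had 11.5, 27.6 and 34.9 CPM and the HME rats 5.98, 16.2 and 6.04 CPM. All model and all HME rats were above all control rats, and HME replicate 2 overlapped the model range. Phgdh was 9.05-fold higher in the model group than in the control group (log2 fold change 3.18, standard error 0.693, unadjusted p = 0.00186 and FDR = 0.113 from edgeR). With any 1 rat left out, this log2 fold change lay between 2.69 and 3.71. The mean was 2.66 ± 2.12 CPM in control livers, 24.7 ± 12 CPM in model livers and 9.42 ± 5.91 CPM in HME livers (SD, n = 3). In the HME group it was below the model group by a log2 fold change of -1.38 (standard error 0.502, unadjusted p = 0.0254 and FDR = 0.542 from edgeR). Relative to the control group, Phgdh was 3.46-fold higher in the HME group (standard error 0.812 on the log2 scale, unadjusted p = 0.0742 and FDR = 0.253 from edgeR). The control rats alone did not pass the filter on low counts, so Phgdh entered both comparisons with them only through its model or HME reads. Its p-values and FDRs over the control group are thus given as values and not as support for a difference. Without HME replicate 2, Phgdh had a log2 fold change of -2.02 between the HME and model groups and of 1.16 between the HME and control groups.

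Psat1 (ENSRNOG00000013971), phosphoserine aminotransferase, acts on the product of Phgdh. The control rats had 3.45, 4.06 and 1.60 CPM, the model rats 19.8, 15.3 and 38.2 CPM, and the HME rats 4.84, 19.7 and 9.14 CPM. As in Asns and Phgdh, model replicate 3 was the highest of the 9 rats, control replicate 3 the lowest, and HME replicate 2 the highest of its group. Psat1 averaged 3.03 ± 1.28 CPM in control livers, 24.4 ± 12.1 CPM in model livers and 11.2 ± 7.64 CPM in HME livers (SD, n = 3). Psat1 was 7.96-fold higher in the model group than in the control group (log2 fold change 2.99, standard error 0.436, FDR = 0.0307 from edgeR and 7.48e-11 from DESeq2). The HME group was 2.17-fold below the model group (log2 fold change -1.12, standard error 0.516, FDR = 0.666 from edgeR) and 3.64-fold above the control group (log2 fold change 1.87, standard error 0.594, FDR = 0.125 from edgeR and 0.000974 from DESeq2). Without HME replicate 2 these log2 fold changes were -1.80 and 1.20.

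Among the feedback and effector genes, Trib3 and Chac1 had their highest mean in the HME group and Sesn2 and Gdf15 in the model group. Trib3 (ENSRNOG00000007319), a pseudokinase that binds ATF4 and the kinase AKT, was at 1.48, 1.31 and 2.20 CPM in the control rats, 7.02, 3.47 and 6.79 CPM in the model rats and 13.5, 13.7 and 3.77 CPM in the HME rats. Replicates 1 and 2 of the HME group were above every model rat, and HME replicate 3 lay within the model range. Means were 1.66 ± 0.469 CPM in control livers, 5.76 ± 1.98 CPM in model livers and 10.3 ± 5.67 CPM in HME livers (SD, n = 3). Trib3 was 3.49-fold higher in the model group than in the control group (log2 fold change 1.8, standard error 0.358, FDR = 0.0836 from edgeR and 0.000533 from DESeq2). In the HME group it was 6.22-fold above the control group (log2 fold change 2.64, standard error 0.528, FDR = 0.0342 from edgeR and 1.33e-07 from DESeq2). The FDR of this difference lay between 0.00177 and 0.135 with 1 rat left out, and it passed 0.01 without HME replicate 3, at a log2 fold change of 3.05. The HME and model groups differed by 0.84 in log2 fold change (standard error 0.485, FDR = 0.766 from edgeR), with overlapping rats.

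Chac1 (ENSRNOG00000014387), an enzyme that degrades glutathione, was counted thinly, with 12 to 124 reads per library. It stood at 1.88, 1.73 and 0.799 CPM in the control rats, 4.41, 3.09 and 2.78 CPM in the model rats and 3.86, 6.69 and 2.22 CPM in the HME rats. Both fructose groups were above all control rats and overlapped each other. Over the control group, Chac1 was 2.31-fold higher in the model group (log2 fold change 1.21, standard error 0.378, FDR = 0.225 from edgeR) and 2.82-fold higher in the HME group (standard error 0.447 on the log2 scale, FDR = 0.0821). The HME and model groups differed by 0.31 in log2 fold change (standard error 0.404, FDR = 0.895 from edgeR), and this difference was negative without HME replicate 2.

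Sesn2 (ENSRNOG00000042785), sestrin 2, senses leucine and restrains the growth kinase mTORC1. The control rats had 22.2, 26.2 and 22.9 CPM, the model rats 47.1, 35.4 and 32.6 CPM and the HME rats 37.0, 28.1 and 39.1 CPM. Here too the model and HME rats were all above the control rats, with a smaller difference and less spread than in the enzymes. The model group was 1.62-fold above the control group (log2 fold change 0.70, standard error 0.176, unadjusted p = 0.00381 and FDR = 0.133 from edgeR). For the HME group the same ratio was 1.46 (standard error 0.146 on the log2 scale, unadjusted p = 0.00444 and FDR = 0.0561 from edgeR). The model and HME rats overlapped, with a log2 fold change of -0.14 (edgeR, standard error 0.191, FDR = 0.90).

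Gdf15 (ENSRNOG00000019661), a secreted stress hormone that acts on appetite through the hindbrain, varied most of the 10 within the control and model groups, with a coefficient of variation of 84.0% and 108%. The control rats had 7.93, 14.3 and 1.20 CPM, the model rats 21.5, 5.21 and 2.22 CPM and the HME rats 5.22, 8.80 and 8.47 CPM. Levels within the control group thus spanned more than 10-fold, and no pair of groups was apart. The log2 fold change between the model and control groups was 0.33 (standard error 0.92, FDR = 0.909 from edgeR), and it ran from -1.10 to 1.06 with 1 rat left out. Model replicate 1 held the high end, and without it the value was -1.10. Between the HME and model groups Gdf15 had a log2 fold change of -0.38 (edgeR, standard error 0.695, FDR = 0.926).

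**Figure D2:**
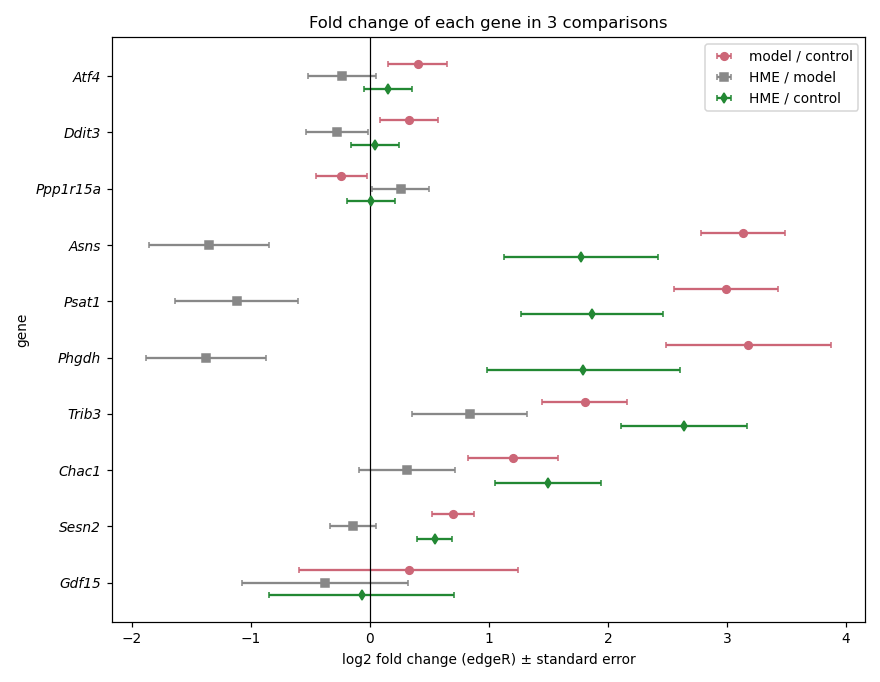
The log2 fold change of each of the 10 genes (horizontal axis) fitted by edgeR in 3 comparisons, with bars for 1 standard error. Model over control is largest in Phgdh (3.18), Asns (3.13) and Psat1 (2.99), where HME over model is negative, and HME over control is largest in Trib3 (2.64).

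Set side by side, the 3 comparisons share libraries and are not independent of each other. Between the model and control groups, 9 of the 10 genes had a higher fitted mean and 1 a lower one, with a median log2 fold change of 0.95 where the median of the 12486 genes tested was 0.00. With at least 10 counts required in every library, which left out Phgdh, the median of the 9 genes left was 0.69. By edgeR at an FDR of 0.01, 0 of the 10 were called, where 0.0801% of all genes tested were. At an FDR of 0.05, Asns and Psat1 were called, against 0.601% of all genes. Unadjusted, 6 of the 10, Phgdh among them, had a p under 0.05, where 13.2% of all genes had. With at least 10 counts required in every library, which left out Phgdh, 5 of 9 had, against 1562 of 11510 genes. DESeq2 at an FDR of 0.01 called Asns, Psat1 and Trib3, against 2.05% of all genes. In 6 genes (Asns, Psat1, Phgdh, Trib3, Chac1 and Sesn2) each model rat was above each control rat, where 11.1% of all genes showed this. Phgdh was tested here only through its model reads, so it adds no support to this count. For a single gene, the smallest two-sided p of an exact permutation test with 3 rats in each group is 0.1.

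Between the HME and model groups, 7 of the 10 genes had a lower fitted mean in the HME group and 3 (Trib3, Chac1 and Ppp1r15a) a higher one. The median log2 fold change was -0.26, where that of the 12502 genes tested was 0.00. Without model replicate 1 this median was 0.00, with 5 genes higher and 5 lower. By edgeR, 0 of the 10 were called at an FDR of 0.01 (0.136% of all genes) and 0 at an FDR of 0.05 (0.456% of all genes), and by DESeq2 0 were called (1.18% of all genes). An unadjusted p under 0.05 was reached by Asns and Phgdh in edgeR, where 8.02% of all genes reached it. Only Asns was lower in each HME rat than in each model rat, where 7.86% of all genes were, and the gap was narrow: the highest HME rat had 17.9 CPM and the lowest model rat 18.0 CPM. When libraries were scaled by their size alone, these ranges overlapped. Left-out rats moved the number of genes apart in either direction, from 1 to 4 without HME replicate 2 and 3 without model replicate 2 (each lower in the HME group), to 3 without model replicate 1 (1 of them higher) and to 2 without HME replicate 3 (1 of them higher). With fewer rats in a group the ranges separate more easily. No share of all genes is given for these settings, so nothing is drawn from the rise.

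Between the HME and control groups, 9 of the 10 genes had a higher fitted mean in the HME group (7 of 10 with libraries scaled by their size alone), and the median log2 fold change was 1.02 where that of the 12633 genes tested was -0.01. With at least 10 counts required in every library, which left out Phgdh, the median of the 9 genes left was 0.54. By edgeR, 0 of the 10 were called at an FDR of 0.01 (1.48% of all genes) and 1, Trib3, at an FDR of 0.05 (6.36% of all genes). DESeq2 called Asns, Trib3 and Psat1, against 6.09% of all genes. An unadjusted p under 0.05 in edgeR was reached by 5 of the 10, where 24.3% of all genes reached it. The 6 genes in which the HME rats were all above the control rats were Asns, Psat1, Phgdh, Trib3, Chac1 and Sesn2, where 14.9% of all genes showed this, and 4 genes were so with libraries scaled by their size alone. Phgdh passed the filter here only through its HME reads, so it adds no support to this count. For Asns the margin was small, with 3.85 CPM in the highest control rat and 4.13 CPM in the lowest HME rat.

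The 10 genes did not rank the rats in one order. Model replicate 1 was the highest of the 9 rats in Atf4, Ddit3, Sesn2 and Gdf15, and model replicate 3 was the highest in Asns, Psat1 and Phgdh but the lowest in Ppp1r15a. In the model group, replicate 1 was the lowest of 3 in Asns and Phgdh while it was the highest in 7 of the other genes. HME replicate 2 was the highest of its group in 8 of the 10 genes, all except Sesn2 and Ppp1r15a. Control replicate 3 was the lowest of the 9 rats in 5 genes, namely Asns, Psat1, Phgdh, Chac1 and Gdf15.

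**Figure D3:**
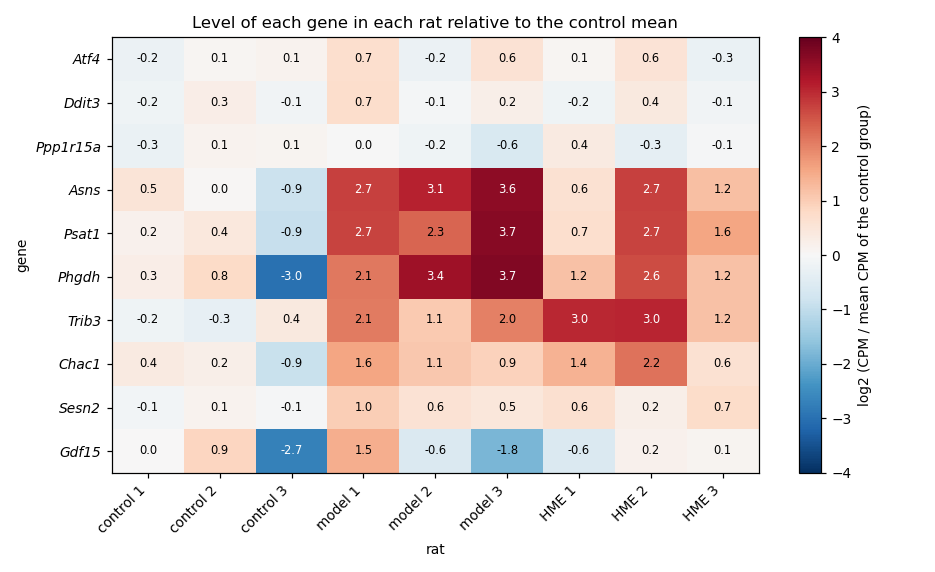
Level of each of the 10 genes (rows) in each of the 9 rats (columns) as the log2 ratio of its CPM to the control mean, in colour and in figures. The 3 enzymes Asns, Psat1 and Phgdh are above the control rats in all model and HME rats, and among the HME rats highest in replicate 2, Trib3 is highest in HME replicates 1 and 2, and Atf4, Ddit3 and Ppp1r15a are closest to 0.

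Other genes of the pathway were read from 8 lists with 101 genes in the table, of which 97, 95 and 96 passed the filter in the comparisons of the model and control, HME and model, and HME and control groups. At an FDR of 0.01, edgeR called 0 of them in each comparison, where 0.0801%, 0.136% and 1.48% of all genes were called. An unadjusted p under 0.05 was reached by 20, 9 and 32 genes, where 13.2%, 8.02% and 24.3% of all genes had such a p. By DESeq2, 2.05%, 1.18% and 6.09% of all genes were called. DESeq2 called 4 genes of the lists between the model and control groups, of which Atf5, Slc6a9 and Adm2 were higher and Slc43a1 lower in the model group. It called 1, Slc6a9, between the HME and model groups. Between the HME and control groups it called 6 that were higher (Eif2ak1, Atf5, Slc38a4, Shmt1, Cth and Eif4ebp1) and 3 that were lower in the HME group (Eif2b3, Hyou1 and Phlda3). At an FDR of 0.05, edgeR called Adm2 as higher and Slc43a1 as lower in the first comparison, 0 genes in the second, and 7 higher and 1 lower in the last, against 0.601%, 0.456% and 6.36% of all genes. Adm2 passed the filter of the first comparison only through its reads in the model rats, so its calls there are no support for a difference. In all genes tested the median log2 fold change of these comparisons was 0.00, 0.00 and -0.01.

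Upstream of Atf4, the list of eIF2 kinases and eIF2 machinery held 16 tested genes, and its median log2 fold change was -0.07, -0.06 and -0.13 in the 3 comparisons in the same order. The kinase genes for unfolded protein (Eif2ak3) and for amino acid shortage (Eif2ak4), which were chosen after their values were seen, had log2 fold changes of -0.42 (FDR = 0.487 from edgeR) and -0.16 (FDR = 0.751) between the model and control groups. Eif2ak1, the haem-regulated kinase, averaged 54.0 ± 3.03 CPM in control rats, 62.4 ± 4.91 CPM in model rats and 76.9 ± 4.24 CPM in HME rats. The 3 groups did not overlap, although the highest control rat at 56.6 CPM was almost level with the lowest model rat at 56.9 CPM. For Eif2ak1 and the genes below, the gaps are given as values. The log2 fold change of Eif2ak1 between the HME and control groups was 0.51 (standard error 0.0977, FDR = 0.0186 from edgeR). Eif2b3, a subunit of the exchange factor that eIF2 phosphorylation blocks, had a log2 fold change of -0.86 between the same groups (edgeR, standard error 0.165, FDR = 0.0186). Dele1, which relays mitochondrial stress to Eif2ak1, had a log2 fold change of 0.35 (FDR = 0.324 from edgeR) between the model and control groups, where the rats did not overlap. In the 3 comparisons, 2, 1 and 2 of the 16 genes were higher without overlap, where 11.1%, 6.17% and 14.9% of all genes were. Lower without overlap were 0, 0 and 5, where 9.94%, 7.86% and 15.2% of all genes were.

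Among 9 tested partners and stress regulators, the medians were 0.15, -0.09 and 0.08. Atf5, a factor that like ATF4 is translated when eIF2 is phosphorylated, had 247, 282 and 166 CPM in the control rats, 1049, 514 and 690 CPM in the model rats and 370, 513 and 487 CPM in the HME rats. The 3 groups were apart from each other in this gene, with the HME rats in the middle, although the highest HME rat at 513 CPM was almost level with the lowest model rat at 514 CPM. Its log2 fold change was 1.70 between the model and control groups (standard error 0.301, FDR = 0.0598 from edgeR and 1.69e-06 from DESeq2), -0.71 between the HME and model groups (FDR = 0.551 from edgeR) and 0.97 between the HME and control groups (standard error 0.207, FDR = 0.0286 from edgeR). Cebpb, a dimer partner of ATF4, had a log2 fold change of -1.18 between the HME and model groups (edgeR, standard error 0.38, FDR = 0.445), and model replicate 1 at 254 CPM was far above the other model rats at 135 and 77.1 CPM.

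Genes for loading amino acids onto tRNA showed small differences. The list held 13 tRNA synthetase genes and the tRNA exporter Xpot, and these 14 genes had medians of 0.09, -0.25 and -0.04, with 11 of the 14 lower in the HME group than in the model group. Yars, for tyrosine, had a log2 fold change of -0.59 in that comparison (FDR = 0.555 from edgeR). Wars, for tryptophan, had one of -0.52 between the HME and control groups (FDR = 0.0558 from edgeR). No gene of this list was called by edgeR at an FDR of 0.05, where 0.601%, 0.456% and 6.36% of all genes were in the 3 comparisons. DESeq2 called none either, against 2.05%, 1.18% and 6.09% of all genes.

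The amino acid transporters had medians of 0.09, 0.09 and 0.05 over 12, 11 and 12 genes tested, and single genes lay on both sides. Slc6a9, a glycine transporter, had 48.2, 28.2 and 40.6 CPM in the control rats, 90.3, 80.7 and 115 CPM in the model rats and 60.7, 46.0 and 52.9 CPM in the HME rats. All model rats were above all others. Slc6a9 differed by 1.29 on the log2 scale between the model and control groups (standard error 0.221, FDR = 0.051 from edgeR) and -0.84 between the HME and model groups (standard error 0.178, FDR = 0.141 from edgeR and 0.00502 from DESeq2). Slc43a1, a carrier of large neutral amino acids, ran the other way, with 33.9 ± 2.99, 15.1 ± 2.65 and 24.6 ± 5.54 CPM. Its FDR was 0.0299 from edgeR between the model and control groups and 0.384 between the HME and model groups. Slc38a4, a carrier of small neutral amino acids in hepatocytes, had a log2 fold change of 0.63 between the HME and control groups (FDR = 0.0438 from edgeR) and 0.61 between the HME and model groups (FDR = 0.416).

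The rest of serine, proline and one-carbon synthesis had medians of 0.00, 0.12 and -0.04 over 13, 12 and 13 genes tested. Psph, which completes serine synthesis after Phgdh and Psat1, and Mthfd2, a mitochondrial folate enzyme, were chosen after their values were seen. Psph was at 9.85 ± 2.32, 14.8 ± 7.51 and 9.65 ± 1.21 CPM with overlapping groups, a log2 fold change of 0.60 between the model and control groups (FDR = 0.535 from edgeR). Mthfd2 had one of 2.19 in that comparison (standard error 0.611, FDR = 0.176 from edgeR), without overlap. In control rats it was at 0.817 ± 0.542 CPM. Mthfd2 passed the filter of that comparison only through its reads in the model rats, so these values are no support for a difference. Shmt1, the cytosolic enzyme that converts serine to glycine, was at 112 ± 6.78, 160 ± 20.6 and 174 ± 10.3 CPM, and its log2 fold change between the HME and control groups was 0.63 (standard error 0.108, FDR = 0.012 from edgeR). Cth, which makes cysteine, had one of 1.02 in the same comparison (FDR = 0.0439 from edgeR). Got1, an aspartate aminotransferase, had a log2 fold change of -0.72 between the model and control groups (FDR = 0.142 from edgeR).

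The secreted and surface ATF4 targets had medians of 0.54, -0.03 and 0.54 over 8, 8 and 7 genes tested. Adm2, a peptide hormone of the adrenomedullin family, was almost absent from control livers, with 3, 3 and 1 reads. The model rats had 75, 18 and 79 reads and the HME rats 7, 47 and 23 reads. The ratio of summed reads, scaled for library size, was 25.3 for the model group (95% counting interval 12 to 63.8, counting error only) and 11.1 for the HME group (5.13 to 28.5), each over the control group. Adm2 passed the filter between the model and control groups only through its reads in the model rats. Its FDR of 0.0307 from edgeR there is thus given as a value and not as support for a difference. Between the HME and control groups the gene did not pass the filter. Eif4ebp1, a brake on translation, was at 22.6 ± 2.27, 35.0 ± 6.78 and 34.4 ± 2.85 CPM, with an FDR of 0.18 from edgeR for the model group and 0.0208 for the HME group over the control group. Fgf21, a hormone that the liver releases in fasting and amino acid shortage, was chosen after its values were seen. It was at 6.86 ± 3.77, 30.4 ± 31.6 and 14.7 ± 11.6 CPM, with an SD above the mean in the model group and an FDR of 0.30 from edgeR.

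**Figure D4:**
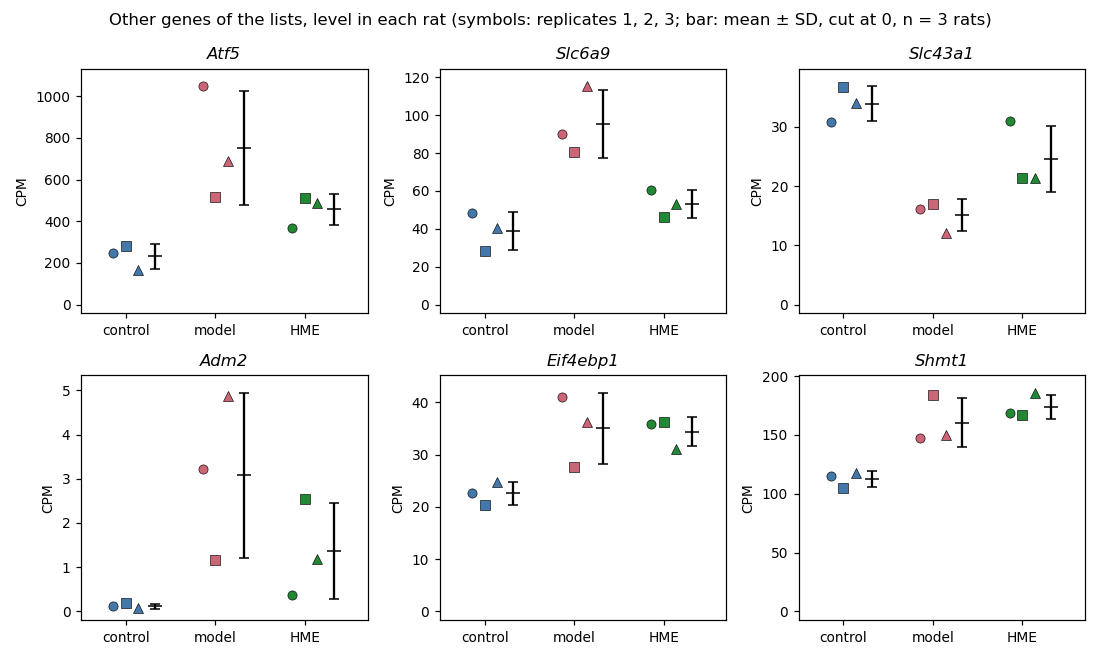
Level (CPM, vertical axis, linear) of 6 other genes of the pathway lists in each of the 9 rats, with circles, squares and triangles for replicates 1, 2 and 3 and bars for the mean ± SD of 3 rats. The 3 groups are apart in Atf5, all model rats are above the others in Slc6a9 and below them in Slc43a1, and Adm2 is below all other rats in the control rats.

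The other arms of the unfolded protein response and the p53 pathway, which shares Sesn2 as a target, were read as lists of their own. The ATF6 and XBP1 arm held 16 tested genes with medians of -0.21, -0.20 and -0.30, and 14 of the 16 were lower in the HME group than in the control group. Hyou1, a chaperone of the endoplasmic reticulum, was at 227 ± 36.9, 159 ± 28.2 and 122 ± 36.8 CPM, a log2 fold change of -0.89 between the HME and control groups (edgeR, standard error 0.223, FDR = 0.051). Ern1, the sensor that splices the Xbp1 mRNA, was lower in each HME rat than in each model rat (log2 fold change -0.52, FDR = 0.404 from edgeR). Xbp1 itself, chosen after its values were seen, was higher in each (0.81, FDR = 0.416 from edgeR). Its log2 fold change between the model and control groups was -0.76 (FDR = 0.267 from edgeR). Between the HME and model groups, 1 of the 16 genes was lower and 1 higher without overlap, where 7.86% and 6.17% of all genes were. The 9 tested p53 targets and other sestrins had medians of 0.04, 0.07 and 0.05. Of these, Phlda3, a repressor of AKT, had a log2 fold change of -1.19 (FDR = 0.108 from edgeR) and Tp53inp1 one of 0.55 (FDR = 0.0413) between the HME and control groups. Bax, the pore-forming death factor, had one of -0.30 between the HME and model groups (FDR = 0.803 from edgeR).

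**Figure D5:**
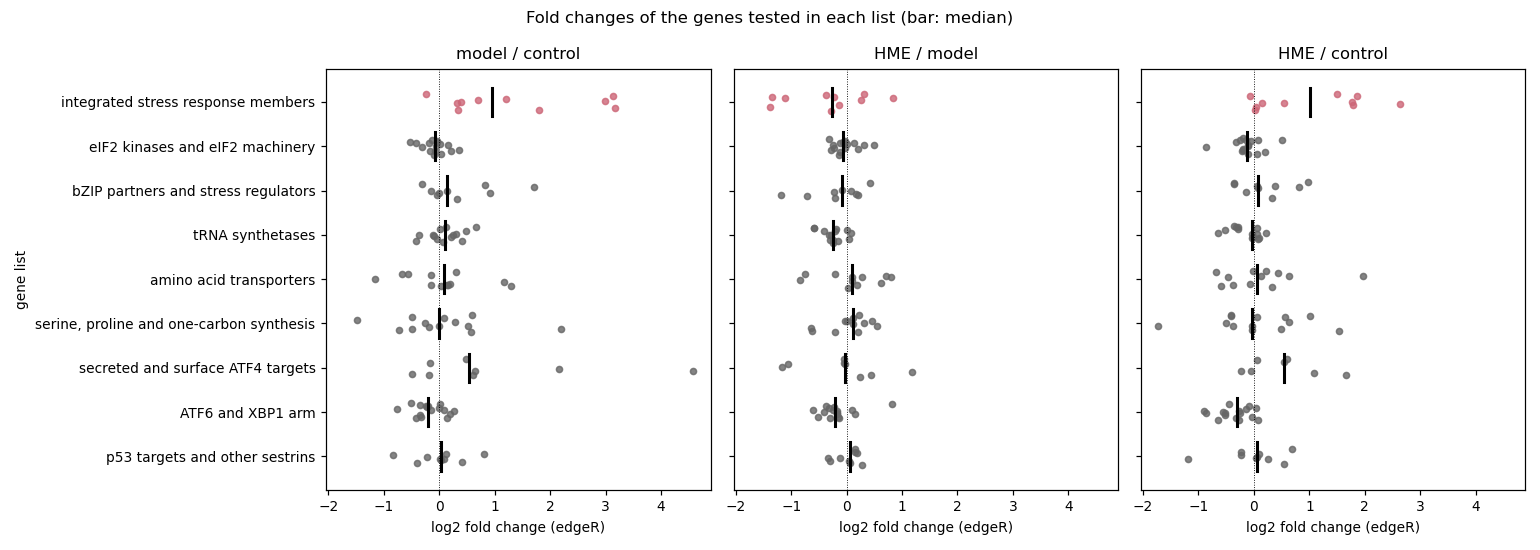
The log2 fold change (horizontal axis) of each tested gene, 1 panel for each comparison, in rows for the 10 genes described here and the 8 other lists, with a bar at each median. In the model over control panel the 10 genes have a median of 0.95 and the other lists lie between -0.21 and 0.54. With at least 10 counts required in every library, which leaves out Phgdh, the median of 9 genes is 0.69 (not drawn).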

How the data were processed

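Liver RNA of 9 rats was read as 3 control, 3 model and 3 HME libraries. The authors enriched mRNA with oligo(dT), used HISAT2 for alignment and HTSeq 0.6.1 for unstranded counting over exons, on build Rnor_6.0 per the submitters' processing notes. They deposited these whole-number counts per gene without normalization. Reads from overlapping or antisense genes can thus be left out or counted to the wrong gene. A second table of assembled transcripts was not used, since its unit is not stated.

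Each comparison was fitted on its 6 libraries with edgeR 4.0.16 in R 4.3.3 (filterByExpr, TMM, robust glmQLFit, two-sided glmQLFTest, Benjamini-Hochberg FDR over all genes tested), with calls at an FDR no higher than 0.01 and a log2 fold change of 0.5 or more in either direction. CPM use TMM factors over 9 libraries (0.871 to 1.14). DESeq2 1.42.0 and the settings under the closing section were alternatives. The fits were checked on simulated data with large planted changes only, so this check does not cover the smaller fold changes given here. Chi-square per gene between rats of a group was 19.6 to 70.8, so the spread between rats, and not counting error, set most errors. The genes and lists were chosen with earlier results of these data known. Beside the 10 genes, the text names from each list any called gene and the gene with the smallest unadjusted p in each comparison, and says where it departs from this. Nupr1, Slc7a3 and Tnfrsf10b were not matched. No rat genome or sequence table was used here, so no positions or sequences are given.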

Additional observations from a re-analysis of the deposited data

How the results depend on the processing

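With 3 rats a group, 1 rat can set a value of the thinly counted genes, and the HME and control comparisons share libraries. Of 418 alternative values of the 10 genes' fold changes, 389 kept their direction and side of the thresholds, 18 reversed and 11 newly passed. These values include the setting of an FDR of 0.05, which reuses the main fit and so could not change a direction. Asns and Psat1 (model over control) and Trib3 (HME over control) newly passed there through the looser threshold alone. None of the 10 genes passed in the main fits, so none could stop passing. Scaling by library size alone moved the median of all genes by -0.146 (model over control) and -0.136 (HME over control) on the log2 scale. For HME over control it called 238 genes, 23.9% of them higher, against 187 with 44.4% higher.

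Of the 10 genes, 0 were called in each comparison. Between the model and control groups this became 1 without a filter on low counts, 3 with DESeq2 and 2 at an FDR of 0.05. For HME over control it became 3 with DESeq2, 1 at an FDR of 0.05, and 0 to 1 with 1 rat left out (1, Trib3, without HME replicate 3). Genes without overlap in either direction between the HME and model groups numbered 1 (Asns), 0 with library size alone, and 1 to 4 with 1 rat left out: 4 without HME replicate 2, 3 without model replicate 1 or 2, and 2 without HME replicate 3. Ranges separate more easily with a rat left out, and no share of all genes is given for these settings.

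Over all genes, the model and control groups gave 10 calls, 71 without a filter, 256 with DESeq2, 25 with all 9 libraries in one fit, 75 at an FDR of 0.05, and 0 to 10 with 1 rat left out (0 without any control rat, with 1129 to 1213 genes at an unadjusted p under 0.05, 5 without model replicate 1 and 2 without model replicate 3). HME over model gave 17, 11 with library size alone, 38 without a filter, 147 with DESeq2, 57 at an FDR of 0.05, and 2 to 12 with 1 rat left out (2 without HME replicate 1, 4 without HME replicate 3 or model replicate 3, 6 without HME replicate 2, 9 without model replicate 1). HME over control gave 187, 489 without a filter, 769 with DESeq2, 113 with all 9 libraries in one fit, 804 at an FDR of 0.05, and 86 to 132 with 1 rat left out (90, 87 and 113 without control replicate 1, 2 and 3, 86 without HME replicate 1, 93 without HME replicate 3).

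With the replicate block, the calls over all genes were 0 (edgeR, 1166 genes at an unadjusted p under 0.05), 7 and 104 in the same order. Same-numbered rats had correlations of -0.264 to -0.0133 and 0 of 9 correlated best with their own number, so the numbers did not pair the rats. Fold changes that reversed were all of genes past no threshold. Under the replicate block these were Gdf15 at 0.22 (HME over model) and 0.23 (HME over control) and Ppp1r15a at -0.0020 (HME over control). With library size alone they were Ddit3 at -0.084 and Ppp1r15a at -0.12 (HME over control). With 1 rat left out, Gdf15 ran from -1.10 to 1.06 for model over control. For HME over model, Chac1 ran from -0.17 to 0.62, Sesn2 from -0.24 to 0.038 and Gdf15 from -0.84 to 1.03. For HME over control, Atf4 ran from -0.087 to 0.34, Ddit3 from -0.16 to 0.19, Gdf15 from -0.56 to 0.67 and Ppp1r15a from -0.19 to 0.17. The causes were not tested.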
